A study of Homo sapiens with 6 samples.

Results

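Replication-dependent histone genes were followed by RNA-seq in JHH-4, a cell line from human hepatocellular carcinoma. Rows of the count table were taken whose symbol was one of 9 older HIST names, and 8 of the 9 had a row: HIST1H1C, HIST1H2AC, HIST1H2BD, HIST1H2BJ, HIST1H2BK, HIST2H2BE, HIST1H4H and HIST2H4A. HIST1H2BC was not analysed here. These 8 rows stood among 12396 named genes. The 9 names were chosen by their difference in counts between overexpression and control in these same 6 libraries, so the difference between the groups for these genes is given below as a description, without a test.

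One group was control JHH-4 cells (3 libraries, genotype labelled WT), and the other was the same line with hsa-miR-372-3p overexpressed by means of a plasmid that encodes its primary transcript (3 libraries). The labels do not say whether the control cells received an empty plasmid. The series calls the 3 libraries of a group technical replicates of 1 cell line, so the spread between them may be technical. Total counts ran from 48325676 to 49693205 in control and from 52511378 to 61699567 in overexpression, so every overexpression library was the deeper one. Of 11 hepatocyte markers, KRT8, KRT18, FGB and SERPINA1 were measured, while 7 others, ALB and AFP included, were not analysed here. KRT8, KRT18 and FGB rose and SERPINA1 fell. Their summed level was 2312 to 2411 CPM (defined below) in control and 4713 to 4861 CPM in overexpression. Most of this sum was KRT8 (mean 1748 CPM in control and 3324 in overexpression) and KRT18 (581 and 1441). SERPINA1 had means of 8.98 and 1.77 CPM, and FGB of 20.9 and 36.4 CPM. Of 12 markers of other cell types, COL1A1 and PDGFRB rose, COL1A2 and CD68 did not pass and 8, PTPRC and PECAM1 included, were not analysed here; the 4 summed to 131 to 154 CPM in control and 210 to 221 CPM in overexpression. Their part in the histone values was not tested, and in bulk RNA a change in the share of cells cannot be told apart from a change in RNA per cell.

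Nucleosomes wrap DNA around the core histones H2A, H2B, H3 and H4, and the linker histone H1 binds where DNA enters and leaves. Most core histone protein is made in S phase from clustered, intron-poor genes whose mRNAs do not end in a poly(A) tail but in a conserved stem-loop, cut by the U7 snRNP and bound by the stem-loop binding protein SLBP. Some of these genes can also make longer, polyadenylated transcripts that run past the stem-loop, which is known from differentiating and slowly cycling cells. Replication-independent variants such as H3.3, H2A.Z and H1.0 come from ordinary polyadenylated genes outside the clusters.

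Of 71 protein-coding HIST genes in GENCODE 29 (GRCh38), 19 had a row, the 8 genes above and 11 others. HIST1H1C (chr6:26055787-26056428), HIST1H2AC (chr6:26124145-26139116), HIST1H2BD (chr6:26158146-26171349), HIST1H4H (chr6:26277609-26285638), HIST1H2BJ (chr6:27125897-27132750) and HIST1H2BK (chr6:27146418-27146798) lie in the histone clusters of chromosome 6. HIST2H4A (chr1:149832659-149839767) and HIST2H2BE (chr1:149884459-149886652) lie in the cluster of chromosome 1.

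The stem-loop is shown first, since it marks where the replication-dependent mRNA ends and which part of each transcript the reads could come from. It was sought in annotated 3′ UTRs as 16 bases that begin with GG, end with CC and pair over 6 bases around a loop of 4. Stems are in capitals below, with the loop and 5 bases on either side in lower case, 5′ to 3′ as DNA, from GENCODE 29 transcripts.
HIST1H2AC: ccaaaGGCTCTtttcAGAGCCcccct
HIST1H2BD: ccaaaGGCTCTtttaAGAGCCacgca
HIST2H2BE: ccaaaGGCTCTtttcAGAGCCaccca
HIST1H4H: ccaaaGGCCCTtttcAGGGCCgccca
HIST2H4A: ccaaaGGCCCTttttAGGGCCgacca
The H2A and H2B genes shared one stem and the H4 genes another. These 5 were found among the 6 genes with an annotated 3′ UTR; HIST1H2BJ had no such match in its annotated 3′ UTR. The models of HIST1H1C and HIST1H2BK cover the coding sequence alone, so theirs could not be searched. Among the other genes of the table, 62 of 12250 (0.506%) held such a match in the first 100 bases of the 3′ UTR. In HIST1H2AC the stem-loop lay 43 bases after the stop codon (chr6:26124669-26124684), with 1114 bases of the longest protein-coding transcript beyond it. HIST2H2BE had 1729 bases beyond its stem-loop (chr1:149886188-149886203), and the 496-base transcript of HIST1H2BD, the only one of that gene to hold it (chr6:26158587-26158602), had 39. The stem-loops of HIST1H4H (chr6:26285131-26285146) and HIST2H4A (chr1:149833032-149833047) lay 41 and 35 bases after the stop codon.

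miR-372-3p is shown to allow its seed to be read against these transcripts, with the seed, bases 2 to 8, in capitals (RefSeq, GRCh38.p14, chr19:53787931-53787953, plus strand).
hsa-miR-372-3p: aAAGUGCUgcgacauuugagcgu
The match to the seed, AGCACTT, occurred in the annotated 3′ UTR of 0 of the 6 genes and of 5 of the 11 other HIST rows. It occurred in the longest 3′ UTR of 3107 of 12250 other genes (25.4%). A match is a description of these letters only.

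Over the whole set, levels in overexpressing cells were higher for 7 of the 8 genes in every library. Summed over the 8 genes, the level in CPM (counts per 1000000 of the TMM-scaled library) was 39.0, 42.6 and 44.4 for the 3 control libraries, given here and below by replicate number. It was 85.6, 88.3 and 90.3 for the 3 overexpression libraries. As a description only, 7 of the 8 lay past an adjusted p of 0.05 upward in the edgeR fit over all genes, as did 26.8% of all genes. The libraries did not overlap, with overexpression above, for the same 7, as for 30.7% of all genes, and 0 of the 8 lay wholly below, as 31.4% of all genes did. Since the names were chosen by this contrast, these counts are no test of the 8 genes and nothing is read from them. The median log2 fold change was 1.11 over the 8 genes and 0.0013 over all 12396.

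**Figure D1:**
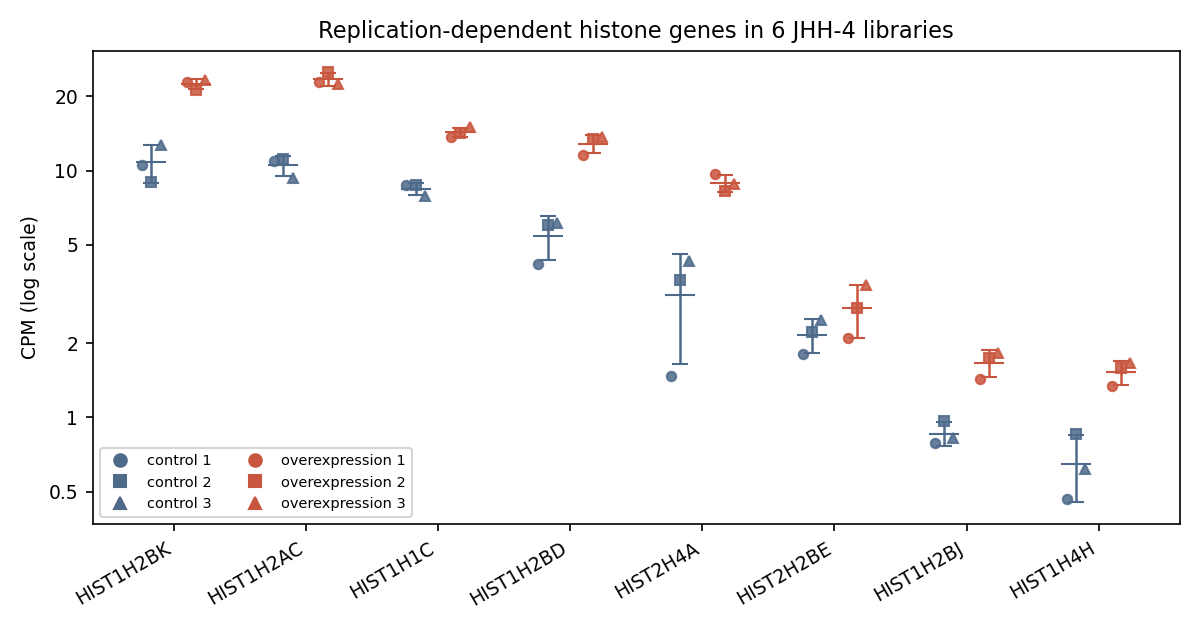
CPM on a log axis of the 8 histone genes in each of 6 libraries, ordered by the control mean; colours give the group, symbols the replicate number, and bars the mean and SD of 3 libraries. HIST2H2BE is the gene whose groups overlap, and HIST2H4A has 1 low control library, replicate 1, at 1.47 CPM.

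HIST1H1C encodes the linker histone H1.2. Its control libraries held 8.73, 8.74 and 7.93 CPM and its overexpression libraries 13.7, 14.2 and 14.99 CPM. The groups were well apart, and neither varied much within itself. This was a log2 fold change of 0.76 (standard error, SE, 0.085), a 1.69-fold difference, the second smallest of the 8.

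HIST1H2AC encodes an H2A protein and starts next to HIST1H2BC, from a shared promoter region on the opposite strand. It had 10.99, 11.2 and 9.37 CPM in control and 22.9, 25.1 and 22.5 CPM in overexpression. Every overexpression library lay above every control. The difference was 2.23-fold, a log2 fold change of 1.16 (SE 0.087).

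Of the 4 H2B genes, HIST1H2BK had the highest level. Its values were 10.6, 9.04 and 12.8 CPM in control and 22.9, 21.3 and 23.4 CPM in overexpression, without overlap. The log2 fold change was 1.06 (SE 0.114), or 2.09-fold. HIST1H2BD, an H2B gene with a spliced long transcript, had 4.17, 6.03 and 6.14 CPM in control and 11.6, 13.4 and 13.6 CPM in overexpression. Replicate 1 was the lowest library of both groups, but all 3 overexpression libraries stayed above the controls. This was a 2.36-fold difference (log2 fold change 1.24, SE 0.148).

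HIST1H2BJ, a low-level H2B gene, was read by 37, 45 and 40 counts in control and by 86, 88 and 102 counts in overexpression. In CPM these were 0.788, 0.966 and 0.824 against 1.43, 1.74 and 1.82, so the groups did not overlap (log2 fold change 0.95, SE 0.211). HIST2H2BE, the H2B gene among the 8 that lies on chromosome 1, was the exception among them. Its CPM were 1.81, 2.21 and 2.47 in control and 2.10, 2.77 and 3.43 in overexpression, and the lowest overexpression library lay below 2 of the controls. The log2 fold change was 0.35 (SE 0.221, 95% confidence interval −0.14 to 0.85), given as a description. It ran from 0.17 without overexpression replicate 3 to 0.52 without overexpression replicate 1.

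HIST1H4H and HIST2H4A both encode H4, whose protein is the same from all its gene copies. HIST1H4H had the lowest level of all, with 22, 40 and 30 counts in control and 80, 80 and 93 in overexpression. In CPM it went from 0.469, 0.858 and 0.618 to 1.33, 1.58 and 1.66, again without overlap. The log2 fold change was 1.23 (SE 0.259) from counts but 0.79 from the authors' FPKM on the log2(FPKM + 0.1) scale. Its FPKM were 0.483 ± 0.017 in control and 0.906 ± 0.0684 in overexpression (SD, n = 3). FPKM divide counts by an assigned length, 831, 1617 and 1152 bases in control and 1358, 1417 and 1737 in overexpression. The scales differ by these lengths and by the added 0.1, and why the lengths differed was not tested.

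HIST2H4A had the largest difference and the largest error. Its values were 1.47, 3.61 and 4.28 CPM in control and 9.69, 8.25 and 8.83 CPM in overexpression, so the groups were apart while control replicate 1 lay far below the other controls. The log2 fold change was 1.51 (SE 0.297), and 1.18 without control replicate 1. A neighbouring inverted copy, HIST2H4B (chr1:149854045-149861210), has the same coding sequence, with 0 differing bases of 312. Reads from the coding part cannot be assigned to one or the other.

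The split of counts between such copies was uneven in control replicate 1. HIST2H4A and HIST2H4B had 168 and 198 counts in control replicate 2, 208 and 211 in control replicate 3, and 581 and 600 in overexpression replicate 1, but 69 and 194 in control replicate 1. HIST2H2AA3 and HIST2H2AA4, which also have identical coding sequences, differed by 1 count in each of the other 5 libraries and had 76 against 153 in control replicate 1. HIST2H3A and HIST2H3C had 40 and 22 there. In that library the larger count went to HIST2H4B, HIST2H2AA4 and HIST2H3A; HIST2H4A and HIST2H4B also differed by 30 counts in control replicate 2, and HIST2H3A and HIST2H3C by 15 in overexpression replicate 1. Summed, the H4 copies had 263, 366 and 419 counts in control and 1181, 829 and 1000 in overexpression, and their log2 fold change was 1.29 (SE 0.146).

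**Figure D2:**
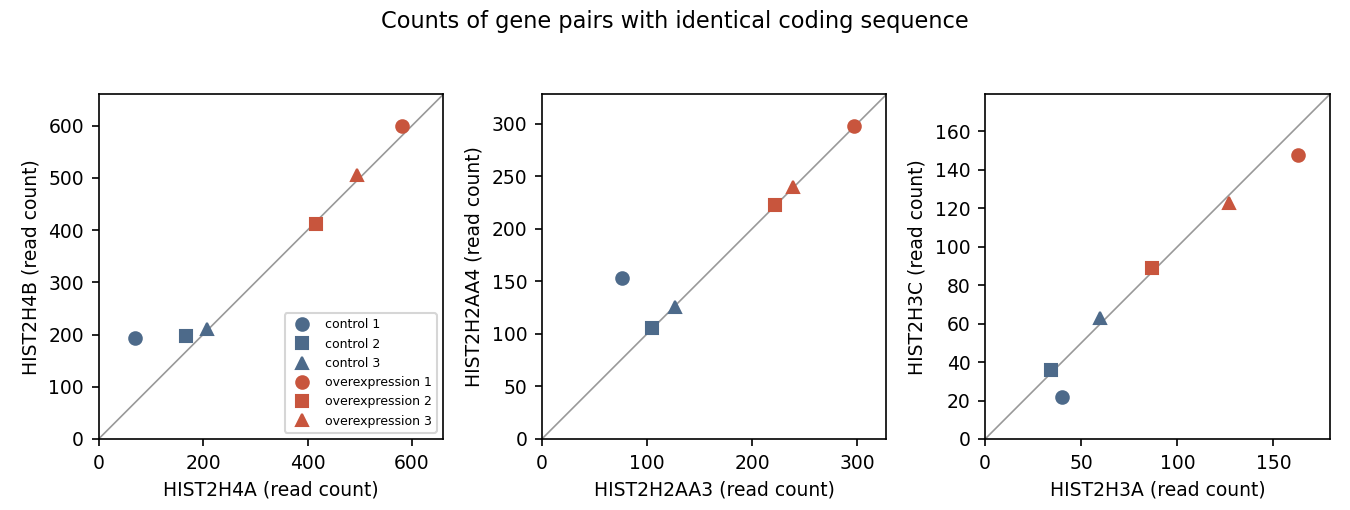
Read counts of the 2 copies of 3 histone gene pairs with identical coding sequence, 1 point a library; the grey line marks equal counts. Control replicate 1 lies off the line in each panel, at 69 and 194, 76 and 153, and 40 and 22 counts.

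Levels of the 8 genes are given here per length, in the FPKM that the authors deposited. Their order depends on unequal annotated lengths, such as 381 bases for HIST1H2BK and 2194 for HIST2H2BE. In CPM, the control means of HIST1H2BK and HIST1H2AC were 10.8 and 10.5. In control, HIST1H2BK had 25.2 ± 4.67 FPKM (SD, n = 3), HIST1H1C 11.7 ± 0.525, HIST1H2BD 6.59 ± 1.00 and HIST1H2AC 5.89 ± 0.5001. HIST2H4A followed with 2.51 ± 0.663, then HIST2H2BE with 0.873 ± 0.138, HIST1H2BJ with 0.859 ± 0.168 and HIST1H4H with 0.483 ± 0.017. The neighbours HIST1H2BD and HIST1H2AC, and HIST2H2BE and HIST1H2BJ, lay within their spread. HIST1H2BK alone made up 47.4, 41.0 and 50.7% of the summed FPKM of the 8 genes in control and 48.4, 45.5 and 47.9% in overexpression, so its share overlapped between groups. HIST1H1C held 18.7 to 23.4% in control and 17.2 to 18.2% in overexpression. Its model and that of HIST1H2BK hold the coding sequence alone, which sets their FPKM.

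The lengths behind the FPKM are those that the authors' processing assigned across annotated transcripts, and no read positions were examined. They are computed from the same counts that entered the choice of genes. Counts were divided by FPKM and scaled on 605 to 633 genes with a single annotated transcript of GENCODE 29. This gave back the annotated length within 20% for 100% of those genes in each library. Such genes return their length by construction, so this is no check of genes with several models. For HIST1H2AC the length so obtained was 1555 to 1616 bases, within the range of its 3 annotated transcripts, 1462 to 1668 bases. All 3 have 2 exons, 2 of them hold the stem-loop, and no shorter one is annotated. HIST2H2BE has a single model of 2194 bases, so its length carries no information on the transcript used.

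HIST1H2BD has 2 annotated transcripts, an unspliced one of 496 bases that ends close to the stem-loop and a spliced one of 789 bases. If only these were present, the longer held 61.1, 95.5 and 83.4% of the gene's FPKM in the control libraries and 68.8, 83.5 and 97.0% in overexpression. The groups overlapped, and by this estimate the longer transcript held the larger part in all 6 libraries. HIST1H4H, with models of 397 to 2163 bases, had lengths of 831, 1617 and 1152 bases in control and 1358, 1417 and 1737 in overexpression, again overlapping and always above its 397-base transcript, which ends near the stem-loop. HIST1H2BJ, with models of 381 to 950 bases, stood at 742 to 949 bases. HIST2H4A stood at 1229 and 1224 bases in control replicates 2 and 3 and 1146 to 1292 in overexpression, but at 716 in control replicate 1, the library where its count was low.

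**Figure D3:**
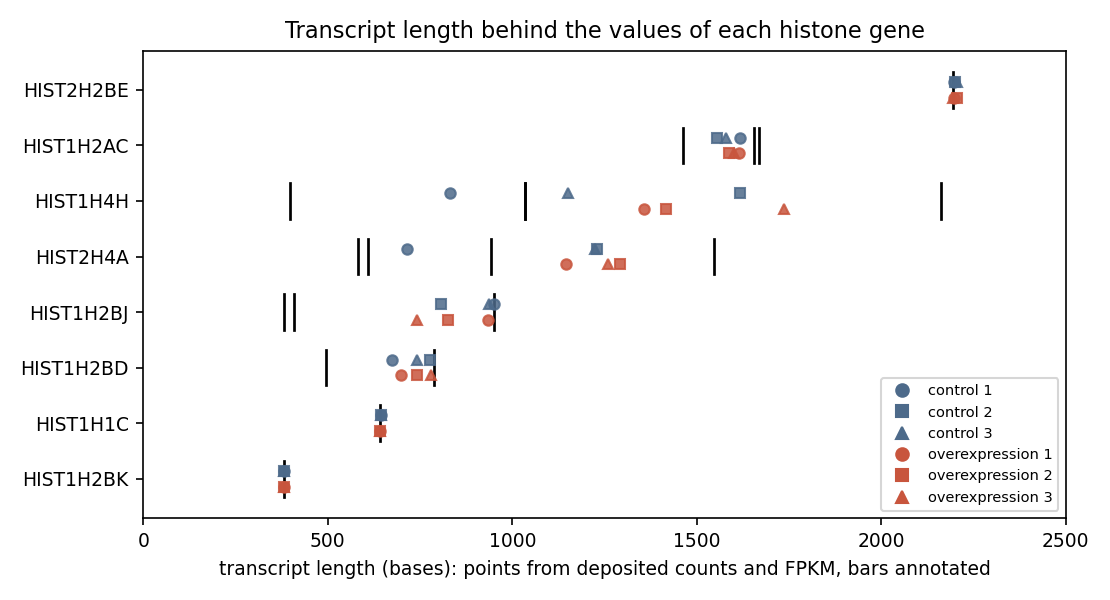
Transcript length in bases behind the values of each histone gene, from deposited counts and FPKM (points, 6 libraries) and from annotation (black bars, 1 per transcript). For HIST1H2BD, HIST1H4H and HIST1H2BJ the points of both groups overlap and lie above the shortest annotated transcript; HIST2H4A is lower in control replicate 1, at 716 bases.

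Promoters of 4 H2B genes are shown because their proteins are near-identical, their coding sequences differ at 30 to 41 of 381 bases, and their differences ranged from 1.28-fold for HIST2H2BE to 2.36-fold for HIST1H2BD. The 120 bases before the RefSeq start are given 5′ to 3′ (GRCh38.p14): chr6:27132796-27132915, minus strand, for HIST1H2BJ, chr6:27146859-27146978, minus strand, for HIST1H2BK, chr1:149886683-149886802, minus strand, for HIST2H2BE, and chr6:26158001-26158120, plus strand, for HIST1H2BD. Capitals mark the octamer ATTTGCAT and the CCAAT box, on either strand, and the TATA box TATAAA on the gene's strand; no match in these windows overlaps another.
HIST1H2BJ: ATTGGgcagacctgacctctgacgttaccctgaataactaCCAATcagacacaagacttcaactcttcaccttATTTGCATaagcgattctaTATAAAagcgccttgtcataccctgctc
HIST1H2BK: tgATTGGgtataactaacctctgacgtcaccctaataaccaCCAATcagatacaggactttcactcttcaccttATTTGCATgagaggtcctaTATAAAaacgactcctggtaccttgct
HIST2H2BE: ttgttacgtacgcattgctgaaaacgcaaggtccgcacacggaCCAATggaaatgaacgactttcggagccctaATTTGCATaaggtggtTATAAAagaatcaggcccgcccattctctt
HIST1H2BD: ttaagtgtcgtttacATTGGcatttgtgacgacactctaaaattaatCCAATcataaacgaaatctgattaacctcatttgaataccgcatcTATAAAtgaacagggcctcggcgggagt
The first 3 carried the octamer 46 or 47 bases before the start, between a CCAAT box and a TATA box, a layout known from H2B genes. HIST1H2BJ, HIST1H2BK and HIST2H2BE thus each carried all 3 motifs, and HIST1H2BD had no exact octamer in its 250 bases. Whether the motifs relate to the differences between groups was not tested. Within 250 bases before the start, the octamer occurred in 4 of the 8 genes and in 1.66% of 27305 RefSeq promoters of that length. The CCAAT box occurred in 6 of 8 and in 33.0% of promoters, and TATAAA in 5 of 8 and in 7.18%. The H4 genes HIST1H4H and HIST2H4A held none of the 3.

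The names above were chosen by this contrast, so the HIST rows left over are no independent check of them. The 11 other HIST rows were tested in the fit over all genes. Of these, 7 rose, 0 fell and 4 did not pass (edgeR adjusted p under 0.05; 26.8% of all genes rose and 27.7% fell), and their median log2 fold change was 0.75. The copies HIST2H2AA3 and HIST2H2AA4, HIST2H3A and HIST2H3C, and HIST2H4B with HIST2H4A may share reads, so these rows are not independent. HIST1H4I, an H4 gene of chromosome 6, had 2.49, 2.23 and 2.47 CPM in control and 4.84, 4.11 and 4.28 CPM in overexpression and rose 1.84-fold (log2 fold change 0.88, SE 0.150; edgeR adjusted p = 0.000778). HIST1H3H, an H3 gene, rose from 1.384, 1.42 and 1.48 CPM to 2.42, 2.39 and 2.12 CPM (log2 fold change 0.69, SE 0.175; edgeR adjusted p = 0.00744).

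The summed copies HIST2H2AA3 and HIST2H2AA4, which encode H2A, rose with a log2 fold change of 0.90 (SE 0.113; edgeR adjusted p = 0.000113), and the summed H3 copies HIST2H3A and HIST2H3C with 1.29 (SE 0.258; adjusted p = 0.00206). Of the 5 HIST rows whose 3′ UTR held AGCACTT, HIST2H3A and HIST2H3C rose, while HIST1H2AG, HIST1H2BG and HIST2H2BF did not pass. The match lay 64 bases after the stop codon in HIST2H3A (chr1:149853130-149853136) and HIST2H3C (chr1:149840676-149840682). Their stem-loop began 39 bases after the stop codon, so the match lay past it. Where the mRNAs of these genes ended, and whether the match bears on their change, was not tested. The first match also lay past the stem-loop in HIST1H2BG (at 123, stem-loop at 29) and HIST2H2BF (at 906, stem-loop at 42). No stem-loop was found in HIST1H2AG. The surroundings of the match, shown with the match in capitals, are the same in HIST2H3A and HIST2H3C.
HIST2H3A and HIST2H3C: cccacatcAGCACTTggaagaag

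HIST1H2AG (log2 fold change 0.29, SE 0.264), HIST1H3E (0.30, SE 0.197) and HIST1H2BG (0.46, SE 0.320) did not pass. HIST2H2BF was the only one of the 19 HIST rows with a negative value, −0.43 (SE 0.281; edgeR adjusted p = 0.224), at 1.34, 1.22 and 1.26 CPM in control and 0.767, 0.692 and 1.37 in overexpression. Leaving out overexpression replicate 3 gave −0.80 (adjusted p = 0.0283), and HIST1H2BG reached 0.91 (adjusted p = 0.0171) without control replicate 3.

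**Figure D4:**
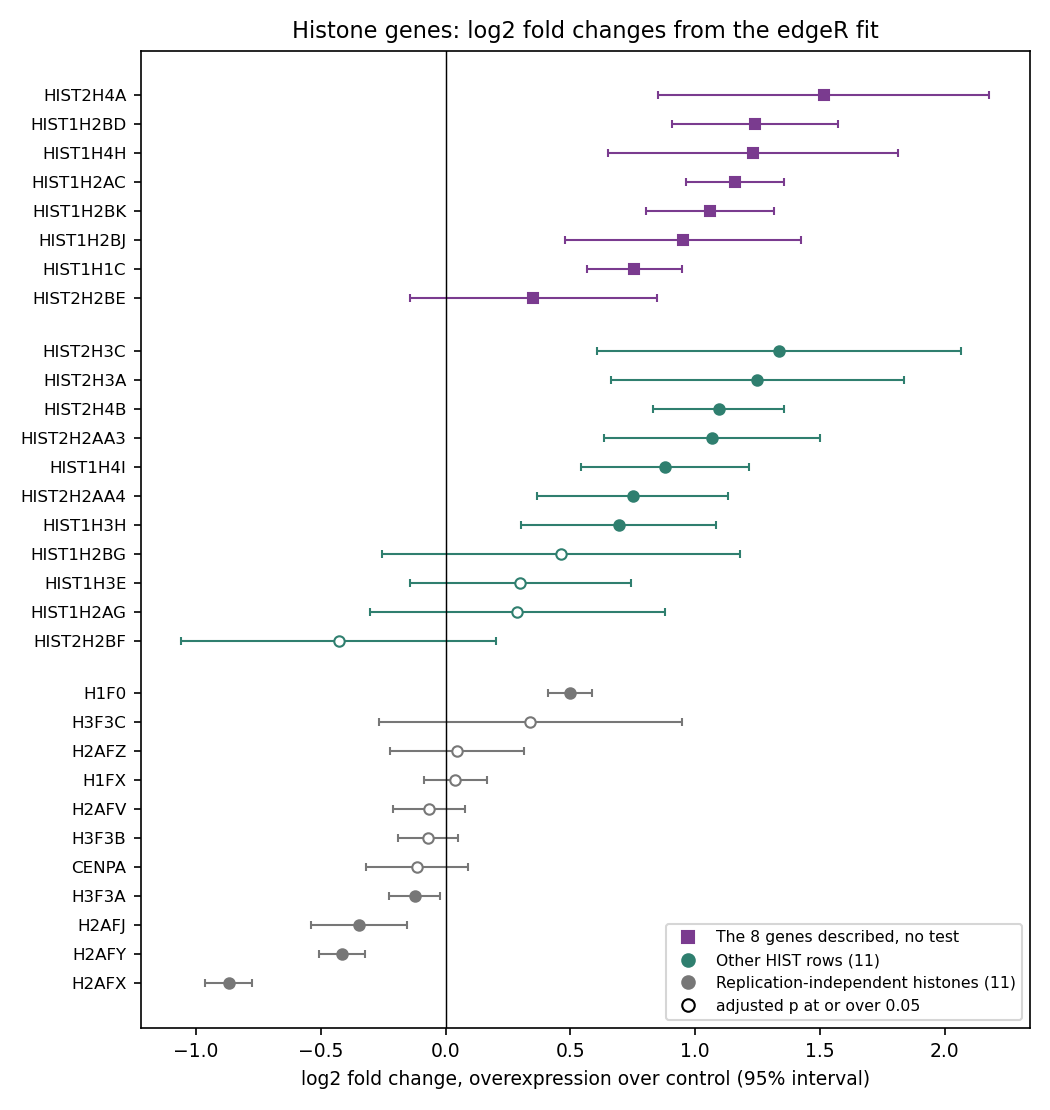
Log2 fold changes of overexpression over control with 95% confidence intervals for the 8 genes described (squares, no test), the 11 other HIST rows and 11 replication-independent histones (circles, open where the edgeR adjusted p was 0.05 or more). HIST2H2BF is the only HIST row below 0, and H2AFX is the lowest gene shown, at −0.87.

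Replication-independent histones went in both directions. Of 11 measured, 1 rose, 4 fell and 6 did not pass, with a median log2 fold change of −0.069. These shares, 9.09% and 36.4%, stand beside 26.8% of all genes that rose and 27.7% that fell. H2AFX, which codes for the H2A.X of DNA damage signalling and can also make a stem-loop mRNA, fell 1.83-fold, from 243, 251 and 237 CPM to 133, 139 and 128 CPM (log2 fold change −0.87, SE 0.042; edgeR adjusted p = 2.24e-07). H2AFY, coding for macroH2A, fell as well (−0.41, SE 0.041; adjusted p = 2.35e-05), as did H2AFJ (−0.35, SE 0.086; adjusted p = 0.00653). H1F0, the linker variant H1.0 that accumulates in cells leaving the cycle, rose 1.41-fold, from 198, 204 and 191 CPM to 271, 286 and 282 CPM (log2 fold change 0.50, SE 0.040; adjusted p = 5.3e-06).

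The H3.3 genes stood far above the clustered genes in counts, at 240 to 266 CPM for H3F3A and 653 to 763 for H3F3B in control. H3F3A fell slightly (−0.12, SE 0.045; edgeR adjusted p = 0.0417), a call lost without control replicate 1 or 3 or overexpression replicate 1 or 3 (adjusted p from 0.0764 to 0.147) or with limma on FPKM (0.309). H3F3B (−0.069, SE 0.054) and the linker gene H1FX (0.039, SE 0.056) did not pass. H2AFZ, coding for H2A.Z, had 260, 234 and 352 CPM in control, so control replicate 3 stood high, and 291, 283 and 299 in overexpression. Its log2 fold change was 0.045 (SE 0.120) over all libraries and 0.23 (adjusted p = 0.00125) without control replicate 3, which also brought the number that rose to 2.

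Genes that transcribe the histone clusters gave 4 that rose and 3 that fell among 14 (28.6% and 21.4%, near the 26.8% and 27.7% of all genes), with a median log2 fold change of −0.023. NPAT, the cyclin E-CDK2 substrate that activates histone transcription, had a log2 fold change of 0.12 (SE 0.046; edgeR adjusted p = 0.0413), a call lost without any 1 of the 6 libraries except control replicate 2 (adjusted p from 0.0614 to 0.14) and with DESeq2 (0.0786). CASP8AP2, its partner at the histone locus, did not pass (0.046, SE 0.067), nor did POU2F1, the octamer-binding factor (−0.022, SE 0.063). HINFP, which binds H4 promoters, rose 1.503-fold (0.59, SE 0.067; adjusted p = 5.88e-05), as did the TBP-like gene TBPL1 (0.43, SE 0.073; adjusted p = 0.000709). NFYA, a subunit of the CCAAT-binding factor, fell 1.55-fold (−0.64, SE 0.050; adjusted p = 5.14e-06).

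Of 21 genes of stem-loop 3′ end formation, 7 rose, 4 fell and 10 did not pass, with a median of 0.00049. The shares were 33.3% and 19.0%, against 26.8% and 27.7% of all genes. SLBP fell 1.14-fold, from 115, 113 and 110 CPM to 102, 94.8 and 99.1 CPM (log2 fold change −0.19, SE 0.042; edgeR adjusted p = 0.00375; limma on FPKM 0.0872). Among genes specific to the U7 snRNP pathway, LSM11 rose 1.39-fold (0.48, SE 0.075; adjusted p = 0.00045) and ZNF473 1.19-fold (0.26, SE 0.051; adjusted p = 0.00201), while LSM10 did not pass (−0.079, SE 0.078). SRRT, the cap-binding partner ARS2, fell (−0.30, SE 0.048; adjusted p = 0.000495). SNRPE, a Sm protein of spliceosomal and U7 particles, rose (0.35, SE 0.122; adjusted p = 0.0325), but not without control replicate 1 or 2 or overexpression replicate 2 or 3 (adjusted p from 0.0617 to 0.12) or with DESeq2 (0.0786). The number that rose was 4 without control replicate 1 or overexpression replicate 2 or 3, and the number that fell was 2 without overexpression replicate 1.

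Cleavage and polyadenylation factors, which would form the long transcripts, were measured for 16 genes. Of these, 1 rose, 2 fell and 13 did not pass (6.25% and 12.5% called, against 26.8% and 27.7% of all genes), with a median of 0.027. SYMPK, CPSF2, CPSF3 and CSTF2 were counted with stem-loop 3′ end formation above and not here, so both tallies depend on that assignment. SYMPK rose (0.17, SE 0.044; edgeR adjusted p = 0.00932), while CPSF2, CPSF3 and CSTF2 did not pass. CLP1 rose 1.45-fold (0.54, SE 0.088; edgeR adjusted p = 0.000579; limma on FPKM 0.0977) and CSTF3 fell 1.31-fold (−0.39, SE 0.056; adjusted p = 0.000266). PAPOLA, the main poly(A) polymerase, was at −0.099 (SE 0.035; adjusted p = 0.038), which did not pass without any 1 library except control replicate 3 (adjusted p from 0.0735 to 0.122), when 1 factor fell. Without control replicate 2, 3 rose.

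Among 17 genes of histone mRNA decay and translation, 8 rose and 2 fell (47.1% and 11.8%, against 26.8% and 27.7% of all genes), with a median of 0.023. DCP2, the mRNA decapping enzyme, rose 2.19-fold, from 33.4, 37.5 and 38.9 CPM to 81.9, 74.2 and 83.7 CPM (log2 fold change 1.13, SE 0.069; edgeR adjusted p = 8.76e-07). The terminal uridylyltransferase TUT1 (0.76, SE 0.119; adjusted p = 0.000447) and SMG1, a kinase of UPF1 (0.42, SE 0.051; adjusted p = 9.43e-05), rose too. MIF4GD and DBR1 fell; the number that fell was 1 without control replicate 1 or 2 or overexpression replicate 1 or 2. ERI1, the exonuclease that trims the stem-loop, did not pass (−0.0071, SE 0.084).

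Of 24 histone chaperones, 8 fell and 4 rose, with a median of −0.054. Over all genes 27.7% fell and 26.8% rose, against 33.3% and 16.7% of the chaperones. ASF1B, the H3-H4 chaperone of proliferating cells, fell 1.87-fold, from 69.4, 70.2 and 76.6 CPM to 39.0, 38.2 and 38.6 CPM (log2 fold change −0.90, SE 0.051; edgeR adjusted p = 5.61e-07). Its paralog ASF1A (−0.45, SE 0.089; adjusted p = 0.00182) and RBBP4, a subunit of CAF-1 (−0.44, SE 0.035; adjusted p = 5.52e-06), also fell. Without control replicate 1, overexpression replicate 1 or overexpression replicate 3, 5 chaperones fell.

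The S phase list holds genes that cycling cells express when histone mRNA is made. Of 33 measured, 16 fell and 4 rose (2 rose without overexpression replicate 3), with a median log2 fold change of −0.12. The shares were 48.5% that fell and 12.1% that rose, against 27.7% and 26.8% of all genes. RRM2, a ribonucleotide reductase subunit, fell 1.66-fold (−0.73, SE 0.033; edgeR adjusted p = 1.49e-07), with GINS3 of the replicative helicase (−0.63, SE 0.076; adjusted p = 8.5e-05) and POLA2 of DNA polymerase alpha (−0.60, SE 0.104; adjusted p = 0.000851) next. Summed over the 33 genes, the level was 5297, 5203 and 5450 CPM in control and 4869, 4799 and 4773 CPM in overexpression, without overlap and opposite in direction to the summed clustered histone genes. The part of cell cycle distribution in the histone levels was not tested.

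**Figure D5:**
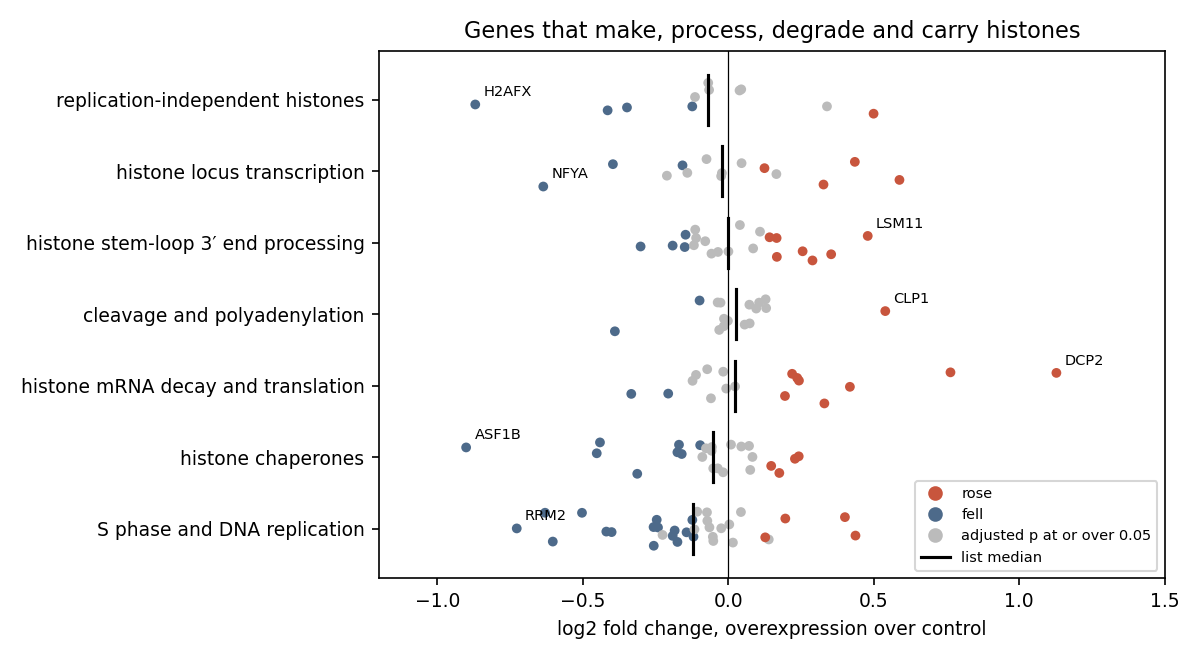
Log2 fold changes of overexpression over control for the genes of 7 lists around histone supply, 1 point a gene, coloured by the edgeR call at an adjusted p of 0.05, with the list median as a black bar and the gene of largest absolute change named. DCP2 is highest at 1.13, and ASF1B lowest at −0.90.

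Outside the HIST rows, genes averaging 2 CPM or more whose profile over the 6 libraries lay nearest to the median of the 8 histone genes were PDGFRB, CIB2, LIMCH1, CORO2A and ADAMTS14. Likeness was the Euclidean distance over the 6 log2 CPM values, each taken relative to the control mean, and it ran from 0.153 for PDGFRB to 0.19 for ADAMTS14. Their log2 fold changes were 1.05 to 1.16, and these genes were picked for that likeness.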

How the data were processed

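Per the labels' protocols, total RNA went into a NEBNext Ultra library kit, which does not mark strand, so a gene and an antisense partner cannot be told apart; the labels give no poly(A) selection or depletion step and no counting method. The deposited read counts are raw whole numbers and the deposited FPKM are the authors' values per transcript length and depth, per the file headers; the authors also deposited a p-value and a log2 fold change per gene, which were not used in tests. The submitters' processing notes name GRCh38, HISAT2 2.0.4, StringTie 2.2.1 and DESeq2 1.38.3. Of 14006 rows, 1610 assembled loci without a gene name (2.64 to 3.63% of counts) were left out. No per-sample column was left without a sample.

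Counts were tested in edgeR 4.0.16 (R 4.3.3; filterByExpr, which removed 0 genes; TMM; quasi-likelihood F-test; Benjamini-Hochberg over 12396 genes; threshold 0.05), after the script was tested on simulated data. SEs come from that fit. The 8 genes had 22 to 1372 counts a library.

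The genes and lists were chosen with earlier results of these data known. Genes named were the 8 genes, all other HIST rows, a fixed set of histone variants and processing factors, up to 3 called genes of largest change per list, and the 5 nearest profiles; POU2F1, MIF4GD, DBR1, ERI1 and the markers were named with their values known. Stem-loops, seed matches and lengths used GENCODE 29; TUT7 and TUT4 replaced older symbols. Promoters were found in RefSeq for 17 of the 19 HIST rows. Replicate numbers did not pair the libraries.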

Additional observations from a re-analysis of the deposited data

How the results depend on the processing

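The alternatives were DESeq2 1.42.0, upper-quartile factors, library totals, no filter, a minimum mean of 5 CPM (which kept 5 of the 8 genes), assembled loci kept, limma on log2(FPKM + 0.1), the replicate block, summed copies (chosen after seeing the data) and each left-out library. The 8 genes were chosen by this contrast, so their values under these settings are no check of it. The call of NPAT was lost with upper-quartile factors (adjusted p = 0.0572), library totals (0.0559), limma on FPKM (0.0758) and the replicate block (0.0667), that of PAPOLA with limma (0.195) and the block (0.0501), that of H3F3A with assembled loci kept (0.0507) and the block (0.0552), and that of SNRPE with limma (0.0878). With limma on log2(FPKM + 0.1), 3 genes of stem-loop processing rose and 1 fell, and 0 polyadenylation factors rose and 1 fell. In the same fit 1 decay gene and 4 chaperones fell, and of S phase genes 2 rose and 11 fell.

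Leaving out 1 library gave these ranges. Of replication-independent histones 1 to 2 rose, and of stem-loop processing genes 4 to 7 rose and 2 to 4 fell. Of polyadenylation factors 1 to 3 rose and 1 to 2 fell. Decay genes that fell numbered 1 to 2, and chaperones that fell 5 to 8. Of S phase genes 2 to 4 rose and 12 to 17 fell. Over all genes, 2800 to 3546 rose and 2961 to 3553 fell.

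With the replicate number as a block, 2 polyadenylation factors rose and 1 fell, and HIST2H4A had a log2 fold change of 1.60. Same-numbered libraries deviated with correlations of −0.139, −0.0724 and 0.113, so the numbers were not taken as pairs. No 2 libraries of a group were duplicates: their chi-square over genes was 6.86 to 38.6 times its degrees of freedom. Counts below about 100 a library limit HIST1H2BJ and HIST1H4H. In control replicate 1, HIST2H4A and HIST2H2BE were also below it, at 69 and 85 counts. So was every control library of HIST1H3H, HIST2H3A, HIST2H3C, HIST1H2AG, HIST1H2BG and HIST2H2BF. HIST1H3E and HIST2H2AA3 also had control libraries below it.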
